A study of Mus musculus with 20 samples.

Results

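The 10 genes described here make and serve the MHC class II pathway of antigen presentation, and they were taken from a fixed list of symbols matched by Ensembl ID to the table of 14776 genes. All 10 were found. They are the classical chain genes H2-Aa, H2-Ab1 and H2-Eb1, the H2-DM genes H2-DMa, H2-DMb1 and H2-DMb2, the invariant chain gene Cd74, the regulator Ciita, and the costimulators Cd80 and Cd86. RNA came from the fat pad around the epididymis (eWAT, epididymal white adipose tissue) of C57BL/6J males, 1 library per mouse. The normal control (NC) group held 6 mice on maintenance feed. The HFD group held 7 mice on a high-fat diet, which were given saline by gavage for the last 6 weeks. The SZ-A group held 7 mice on the same diet, which received SZ-A, the alkaloids of mulberry twig (Ramulus Mori, Sangzhi), by daily gavage over the same 6 weeks after 14 weeks of diet. All mice were 6 weeks old at the start and were fasted before dissection. No allele or transgene was part of the design, and the saline gavage is not stated for NC mice, so diet and gavage cannot be told apart between HFD and NC.

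MHC class II molecules are pairs of an alpha and a beta chain that carry peptides from proteins taken up by the cell to CD4+ T cells. The invariant chain (Cd74) fills the groove of new molecules until proteases cut it down, and H2-DM then exchanges the last fragment for a peptide. CIITA, the product of Ciita, has no DNA-binding domain of its own and acts on a complex of the RFX and NF-Y factors that sits on the X and Y boxes of class II promoters. Dendritic cells, B cells and macrophages carry class II, and CD80 and CD86 on these cells bind CD28 on the T cell. In obese fat, macrophages gather around dying adipocytes, and adipocytes have also been described to carry class II. In bulk RNA, fewer cells of a type and less RNA per cell cannot be told apart.

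H2-Aa (ENSMUSG00000036594, 34282744 to 34287823, minus strand), H2-Ab1 (ENSMUSG00000073421, 34257689 to 34269419), H2-Eb1 (ENSMUSG00000060586, 34305867 to 34316674), H2-DMa (ENSMUSG00000037649, 34119541 to 34139101), H2-DMb1 (ENSMUSG00000079547, 34153072 to 34160230) and H2-DMb2 (ENSMUSG00000037548, 34143307 to 34151555) lie together on chromosome 17 of GRCm38. Ciita (ENSMUSG00000022504, 10480059 to 10528418), Cd86 (ENSMUSG00000022901, 36603869 to 36666081, minus strand) and Cd80 (ENSMUSG00000075122, 38455561 to 38496335) lie on chromosome 16. Cd74 is ENSMUSG00000024610. All are annotated as protein-coding, and the FPKM refer to their exons. The library kit does not mark strand, so reads in 360 exon bases that H2-DMa shares with Brd2, and in 329 that Ciita shares with Dexi, cannot be assigned to either gene. H2-DMb1 and H2-DMb2 are near copies: 22.7% of the 50-base windows of the H2-DMb1 transcripts occur in H2-DMb2, and 4.71% of the 150-base windows. Their values could therefore share some reads.

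Promoter sequence was read from the RefSeq table of GRCm38.p6 for H2-Aa, H2-Eb1, H2-DMa, H2-DMb1, H2-DMb2 and Cd80. The promoters of the other members were not read. The 150 bases before each start were searched on both strands for a Y box core, TGATTGG, and an X box core, AACNGATG. These letters were chosen with the windows in view, and the motifs do not overlap. The Y core occurred in 5.71% and the X core in 1.14% of 32851 promoter windows of the same length, and an X core ahead of a Y core on the gene's strand occurred in 6 windows, or 0.0183%. H2-Eb1, H2-DMb1 and H2-DMb2 were among the 6, with 28, 29 and 29 bases from the start of X to the start of Y. The others were H2-Eb2, a class II beta gene not analysed here, BC051142 and Gm35444. H2-Aa held the Y core alone, 50 bases before its start. Neither core was found in the 2 windows of H2-DMa or in that of Cd80. The windows of these 2 genes lie inside their annotated spans, and other starts of them were not read. The windows of 52 bases around the Y core are shown to set the promoter of H2-DMb2, whose RNA differed from the rest, beside those of 3 members that moved with diet. Capitals mark the cores, X first and Y second.
H2-Aa (chr17:34287860-34287911, minus strand): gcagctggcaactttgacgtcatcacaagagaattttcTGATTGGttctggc
H2-Eb1 (chr17:34305768-34305819, plus strand): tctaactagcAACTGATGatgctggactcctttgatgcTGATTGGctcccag
H2-DMb1 (chr17:34153090-34153141, plus strand): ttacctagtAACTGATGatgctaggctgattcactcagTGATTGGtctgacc
H2-DMb2 (chr17:34145119-34145170, plus strand): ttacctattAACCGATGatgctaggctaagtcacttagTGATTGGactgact
A match is a stretch of letters and not a measured site.

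Reads were recovered from the FPKM for each mouse, and 13567667 to 19388628 reads per mouse lay on the deposited genes. The library labelled NC replicate 6 stood apart from the rest and went against its labelled tissue. Its median correlation with the other NC mice was 0.765, against at least 0.881 for any other mouse with its own group. Adipoq, the adipocyte hormone adiponectin, was at 26.6 FPKM in it and at 859.5 to 2278 FPKM in the other NC mice. Adgrg2, a gene of epididymal duct epithelium, was at 420.4 FPKM in it and at 5.69 to 29.97 FPKM in the other NC mice. SZ-A replicate 2 had 103 FPKM of Adgrg2, while the other SZ-A mice had 1.80 to 10.3 FPKM. The main counts of members against NC are therefore given with and without NC replicate 6. Other values against NC, and the fits with a B cell covariate, include that library unless stated. The p-values measure the spread between these mice.

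The members covered a wide range of levels. In HFD mice, mean FPKM, which is scaled to gene length, was 1114 ± 229.8 (SD, n = 7) for Cd74, 489 ± 115 for H2-Eb1, 385 ± 102 for H2-Aa and 339 ± 68.7 for H2-Ab1. H2-DMb1 followed at 55.7 ± 8.33 FPKM and H2-DMa at 32.3 ± 3.41 FPKM. Ciita at 3.92 ± 1.04, Cd80 at 3.05 ± 1.17, Cd86 at 2.86 ± 0.859 and H2-DMb2 at 1.59 ± 1.02 FPKM were the lowest, and neighbours in this last stretch lay within 1 SD of each other, except that Cd86 and H2-DMb2 were further apart. H2-Aa and H2-Ab1 also overlapped, with ratios of H2-Aa to H2-Ab1 from 0.960 to 1.33 over the HFD mice. The order between H2-Eb1 and H2-Ab1 was the same in every mouse, since their ratio ran from 1.30 to 1.65 over all 20.

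**Figure D1:**
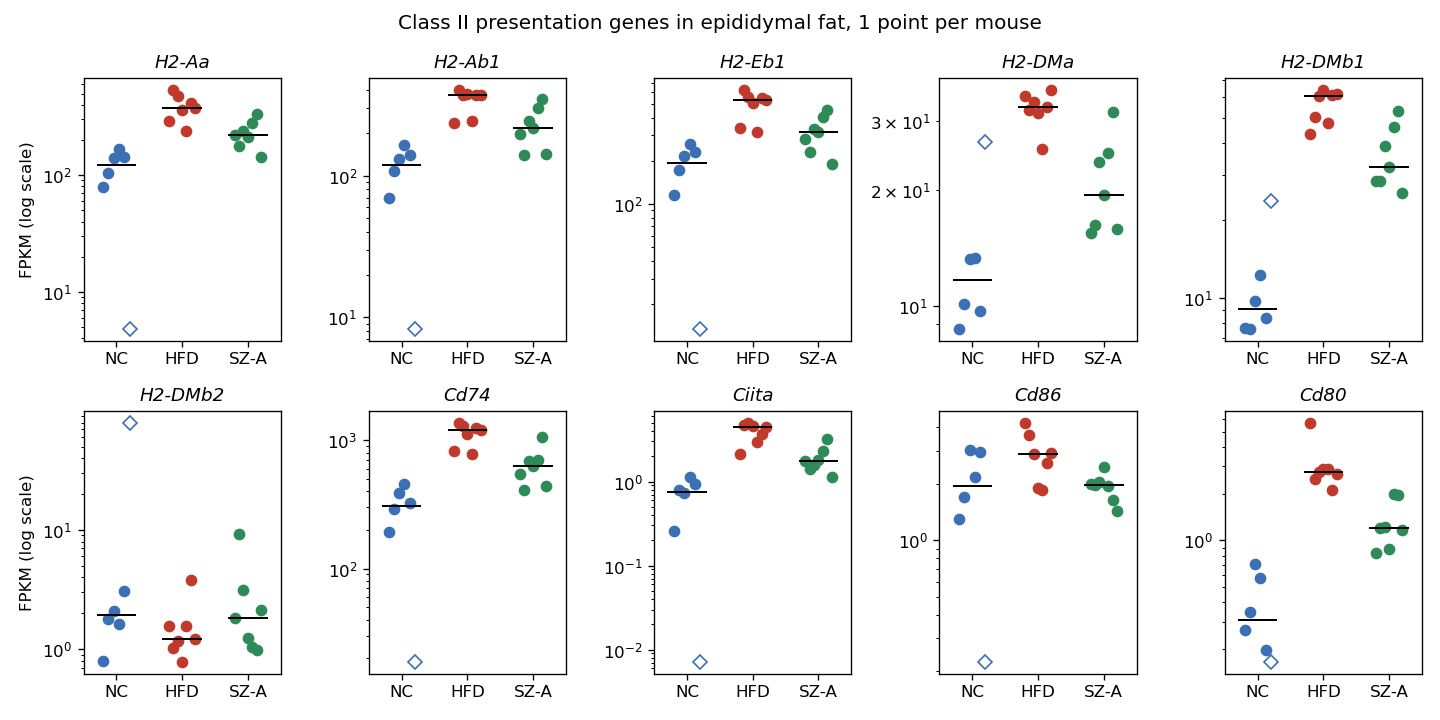
FPKM of each member on a log axis (vertical), 1 point per mouse, in NC, HFD and SZ-A mice (horizontal); bars are group medians and the open diamond is NC replicate 6. HFD mice lie above the other 5 NC mice for 8 members, SZ-A mice lie mostly between, and the open diamond is at 4.83 FPKM for H2-Aa but at 78.8 FPKM for H2-DMb2.

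The comparison of HFD with NC asks what the diet did to these genes. Of the 10 members, 8 rose in HFD mice: H2-Aa, H2-Ab1, H2-Eb1, Cd74, H2-DMa, H2-DMb1, Ciita and Cd80. H2-DMb2 and Cd86 did not pass the test. Over all genes tested, 21.0% were called higher at an adjusted p under 0.05. The same 8 members were called without NC replicate 6, beside 22.6% of all genes. The median log2 fold change over the 10 members was 1.77 and over all genes tested -0.04, and without NC replicate 6 these medians were 1.48 and -0.04. The groups did not overlap for 7 members, where 12.7% of all genes lay wholly higher in HFD. With that library left out they did not overlap for 8 members, beside 14.9% of all genes. At the threshold in the methods of the study, which adds a log2 fold change above 1.5, 7 members passed beside 5.43% of all genes, but only H2-Aa, H2-DMb1 and Cd74 passed without NC replicate 6, beside 4.82%.

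The classical chains rose by 1.31 to 1.60 on the log2 scale once NC replicate 6 was left out. H2-Ab1, the beta chain of I-A, had a lowest, median and highest level of 8.30, 119 and 165 FPKM in NC and of 236, 369 and 401 FPKM in HFD mice. Every HFD mouse was above every NC mouse. On the scale of log2(FPKM + 1), the change was 2.10 (SE 0.55, adjusted p = 0.00791), or 1.49 (SE 0.22, adjusted p = 0.000152) without NC replicate 6. H2-Aa, the alpha chain that pairs with it, ran from 4.83 over 122 to 168 FPKM in NC and from 239 over 377 to 533 FPKM in HFD mice. Its log2 change was 2.33 (SE 0.65, adjusted p = 0.0109), and 1.60 (adjusted p = 0.000126) without NC replicate 6. H2-Eb1, the beta chain of I-E, whose alpha chain gene is defective in C57BL/6 mice, changed by 1.94 (adjusted p = 0.0141), and by 1.31 (adjusted p = 0.000681) without that library. Its levels rose from 115 to 262 FPKM in the other 5 NC mice to 317 to 620 FPKM in HFD mice, with no overlap. The calls of all 3 chains were lost when the mean level of 5 B cell genes was a covariate, all 6 NC mice included. The changes were then 0.87 for H2-Aa (adjusted p = 0.232), 0.88 for H2-Ab1 (adjusted p = 0.165) and 0.68 for H2-Eb1 (adjusted p = 0.295). NC replicate 6 had a mean B cell level of 0.311 on the log2(FPKM + 1) scale, against 1.70 to 2.79 in the other NC mice. The fit with this covariate was not made without that library.

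Cd74 was the most abundant member in each of the 3 groups by its mean. The NC mice had a lowest, median and highest level of 18.8, 309 and 458 FPKM, and the HFD mice of 777.5, 1196 and 1353 FPKM. The groups were fully separate. The log2 change was 2.44 (SE 0.60, adjusted p = 0.00551), and 1.77 (SE 0.24, adjusted p = 6.7e-05) without NC replicate 6. With the B cell covariate it was 1.12 (adjusted p = 0.112) over all mice, and the call was lost. Per H2-Ab1, Cd74 had a median ratio of 2.73 in NC (2.27 to 2.998), 3.37 in HFD (2.94 to 3.52) and 2.88 in SZ-A mice (2.33 to 3.12). The HFD range lay highest and overlapped with both others.

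On the log2(FPKM + 1) scale, H2-DMb1 had the largest change among the members when NC replicate 6 was left out. With a pseudocount of 0.01 and all mice, its log2 change of 2.38 was below those of Ciita, Cd80 and Cd74. H2-DMb1 encodes the beta chain of the peptide exchanger H2-DM. It had a lowest, median and highest level of 7.59, 9.04 and 23.8 FPKM in NC and of 43.1, 60.9 and 63.96 FPKM in HFD mice. The highest NC value was that of NC replicate 6, and it still lay under every HFD mouse. The log2 change was 2.27 (SE 0.23, adjusted p = 4.45e-06), and 2.49 (SE 0.14, adjusted p = 4.04e-08) without that library. H2-DMa, the alpha chain of the same dimer, rose less, by 1.28 (SE 0.21, adjusted p = 0.000289), or 1.48 (adjusted p = 1.12e-06) without NC replicate 6. It was at 8.77 to 13.4 FPKM in the other 5 NC mice, at 26.6 FPKM in NC replicate 6 and at 25.5 to 36.1 FPKM in HFD mice. The ratio of H2-DMa to H2-DMb1 was 1.09 to 1.36 in NC mice, 0.492 to 0.810 in HFD mice and 0.539 to 0.620 in SZ-A mice. The NC mice, replicate 6 among them, thus did not overlap with either other group in this ratio, which was compared after the values were seen and has no test.

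H2-DMb2, the second beta chain gene of H2-DM, did not follow H2-DMb1. The NC mice had a lowest, median and highest level of 0.798, 1.93 and 78.8 FPKM, the HFD mice of 0.784, 1.22 and 3.80 FPKM, and the SZ-A mice of 0.991, 1.82 and 9.27 FPKM. The 3 groups overlapped. The highest values came from NC replicate 6 and SZ-A replicate 2, which were also the mice with the most Adgrg2. The log2 change from NC to HFD was -0.98 (95% interval -2.49 to 0.53, adjusted p = 0.281), and -0.18 (-0.69 to 0.34, adjusted p = 0.577) without NC replicate 6. In the other 19 mice the ratio of H2-DMb2 to H2-DMb1 was at most 0.372, while it was 3.30 in NC replicate 6. That library held 2005 reads of H2-DMb2 and 584 of H2-DMb1. The part of epididymal RNA in these values was not tested.

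**Figure D2:**
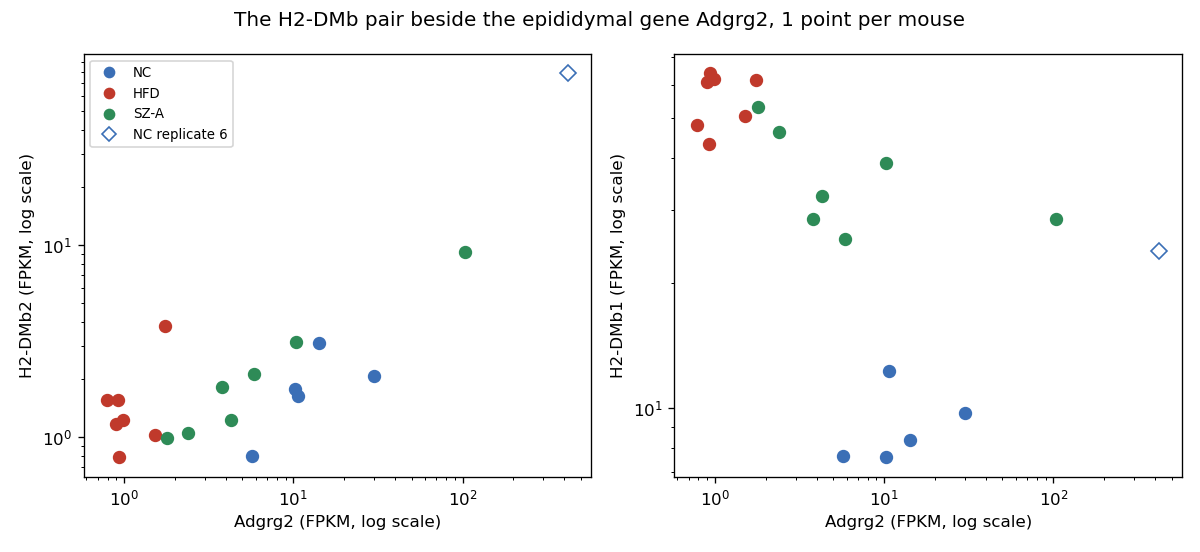
FPKM of H2-DMb2 (left) and H2-DMb1 (right), vertical, against the FPKM of Adgrg2, horizontal, all on log axes, 1 point per mouse. The mice with 420.4 and 103 FPKM of Adgrg2 have the highest H2-DMb2, 78.8 and 9.27 FPKM, whereas H2-DMb1 is highest in HFD mice, where Adgrg2 is at 0.789 to 1.75 FPKM.

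Ciita rose with the chains it acts on. The NC mice had a lowest, median and highest level of 0.0072, 0.758 and 1.12 FPKM, and the HFD mice of 2.15, 4.46 and 4.93 FPKM. No HFD mouse overlapped with an NC mouse. These values rest on 40 to 196 reads in 5 NC mice, on 1 read in NC replicate 6 and on 316 to 849 reads in HFD mice. The log2 change was 1.60 (SE 0.20, adjusted p = 3.01e-05), and 1.47 (adjusted p = 2.22e-05) without NC replicate 6. A pseudocount of 1 understates changes at such levels. With a pseudocount of 0.01, the log2 change of Ciita was 3.33 (adjusted p = 0.00523).

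The costimulators parted. Cd80, the high-affinity ligand of CD28 and CTLA-4, was nearly silent in NC mice, with a lowest, median and highest level of 0.167, 0.307 and 0.706 FPKM, or 9 to 42 reads. In HFD mice it was at 2.12, 2.74 and 5.64 FPKM, with no overlap. The log2 change was 1.53 (SE 0.16, adjusted p = 7.05e-06), 1.49 (adjusted p = 1.25e-05) without NC replicate 6 and 3.10 (adjusted p = 1.55e-05) with a pseudocount of 0.01. Cd86, the second ligand of the same receptors, was at 0.225, 1.95 and 3.03 FPKM in NC and at 1.85, 2.87 and 4.20 FPKM in HFD mice, and the groups overlapped. Its log2 change was 0.48 (95% interval -0.06 to 1.03, adjusted p = 0.145), and 0.26 (-0.14 to 0.65, adjusted p = 0.275) without NC replicate 6. The ratio of Cd86 to Cd80 was 3.79 to 14.9 in the 5 other NC mice, 0.647 to 1.48 in HFD mice and 0.835 to 2.80 in SZ-A mice. In NC replicate 6 the ratio was 1.35, inside the range of the HFD mice.

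The comparison of SZ-A with HFD asks what the alkaloids did in mice kept on the diet, and it shares its HFD mice with the comparison above. Of the 10 members, 7 fell in SZ-A mice: H2-Aa, H2-Eb1, H2-DMa, H2-DMb1, Cd74, Ciita and Cd80. The background was 13.3% of all genes tested called lower. The median log2 fold change was -0.65 over the 10 members and 0.03 over all genes tested. None of the 10 passed the threshold in the methods of the study, since no fall reached 1.5 on the log2 scale, and 0.558% of all genes did. The study's text also uses a limit of 1.5 on the fold itself. With that limit the same 7 members passed, beside 7.37% of all genes. The groups did not overlap for 1 member, Cd80, where 4.01% of all genes lay wholly lower in SZ-A mice. With all 3 groups in 1 fit, in which NC replicate 6 takes part in the estimate of the spread, H2-DMa, Ciita and Cd80 kept their call, 3 members beside 9.28% of all genes called lower.

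Cd74 fell by 0.84 on the log2 scale in SZ-A mice (SE 0.23, adjusted p = 0.0183). The SZ-A mice had a lowest, median and highest level of 409.9, 626 and 1055 FPKM, against 777.5, 1196 and 1353 FPKM in HFD mice. Only SZ-A replicate 6 reached the range of the HFD mice. H2-Aa fell by 0.75 (SE 0.21, adjusted p = 0.0218), to a lowest, median and highest level of 143, 221 and 331 FPKM, and its 2 highest SZ-A mice overlapped with the HFD range. H2-Eb1 fell by 0.65 (adjusted p = 0.0482), with 189, 316.5 and 452.5 FPKM in SZ-A mice. This call was lost when any 1 of 10 mice was left out (adjusted p from 0.0252 to 0.0948 over the 14 mice). H2-Ab1, at 141, 217 and 348 FPKM in SZ-A mice, had a log2 change of -0.62 (95% interval -1.09 to -0.15, adjusted p = 0.0571) that did not pass. The values of the 3 chains were thus close in size, and they lay on both sides of the threshold.

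Both H2-DM genes that had risen with diet fell. H2-DMa fell by 0.63 (SE 0.15, adjusted p = 0.00943), from 25.5 to 36.1 FPKM in HFD mice to a lowest, median and highest level of 15.5, 19.4 and 31.8 FPKM. H2-DMb1 fell by 0.64 (SE 0.16, adjusted p = 0.0127), to 25.5, 32.3 and 52.9 FPKM. In each case SZ-A replicate 6 lay inside the HFD range and most of the others below it. That mouse also had the most Adgre1 of the SZ-A group, 122 FPKM, and its part in these levels was not tested. H2-DMb2 had a log2 change of 0.38 (95% interval -0.32 to 1.07, adjusted p = 0.412), and the groups overlapped.

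Ciita fell by 0.77 (SE 0.17, adjusted p = 0.00548), to a lowest, median and highest level of 1.13, 1.75 and 3.23 FPKM. The SZ-A mice held 206 to 563 reads of it. SZ-A replicates 5 and 6 reached the HFD range. The largest separation was that of Cd80, which was at 0.826, 1.203 and 1.996 FPKM in SZ-A mice, all below the lowest HFD mouse at 2.12 FPKM. Cd80 fell by 0.79 (SE 0.16, adjusted p = 0.00408), and by 1.21 (adjusted p = 0.00349) with a pseudocount of 0.01. HFD replicate 1 was far above the other HFD mice, and without it Cd80 was still called. Cd86, at 1.43, 1.96 and 2.45 FPKM in SZ-A mice, had a log2 change of -0.38 (95% interval -0.67 to -0.09, adjusted p = 0.0578).

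**Figure D3:**
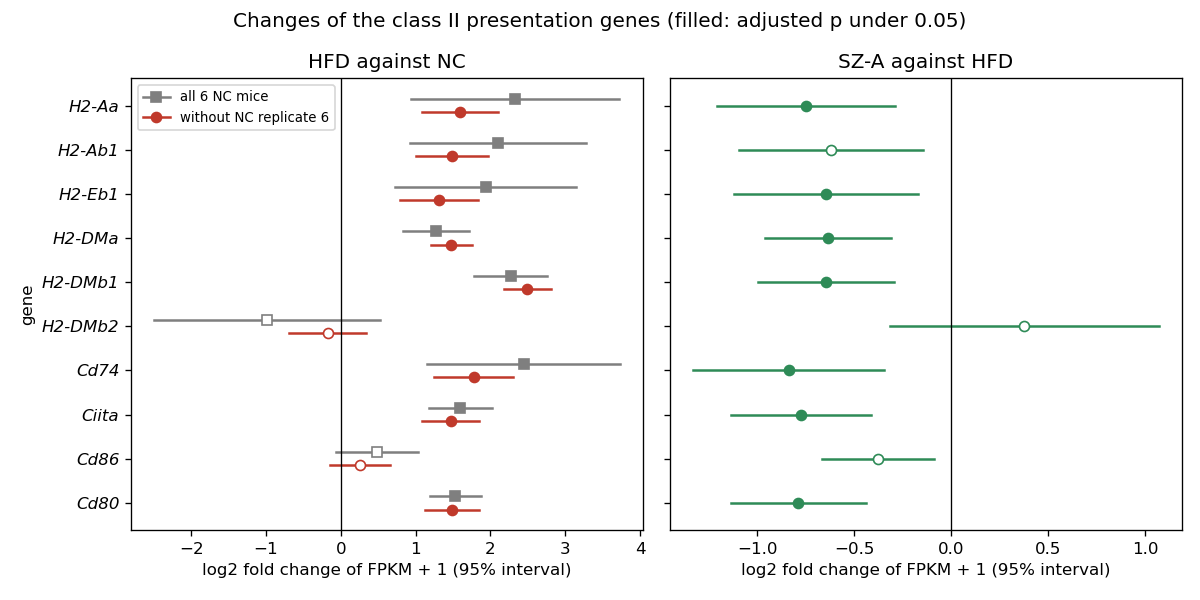
Log2 fold change of FPKM + 1 (horizontal) with its 95% interval for each member (vertical), for HFD against NC (left, with all 6 NC mice and without NC replicate 6) and SZ-A against HFD (right); filled points have an adjusted p under 0.05. The 8 members called in HFD lie between 1.28 and 2.44 with all mice, and the 7 called in SZ-A lie between -0.84 and -0.63.

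SZ-A mice compared with NC mice show what was still raised under treatment. H2-DMb1 was higher by 1.63 (SE 0.26, adjusted p = 0.00273), Ciita by 0.82 (adjusted p = 0.0257) and Cd80 by 0.74 (adjusted p = 0.00839). These 3 members stood beside 4.15% of all genes called higher. No SZ-A mouse overlapped with an NC mouse in these 3. The share of all genes without overlap is not given for this comparison. Without NC replicate 6, H2-DMa was called as well, with a change of 0.84 (adjusted p = 0.0222), which made 4 beside 4.63% of all genes. H2-DMb1 alone passed the threshold of 1.5, with all mice (1.73% of all genes) and without NC replicate 6 (1.45%). The classical chains and Cd74 were not called. Their changes without NC replicate 6 were 0.85 for H2-Aa (95% interval 0.32 to 1.37, adjusted p = 0.062), 0.87 for H2-Ab1 (0.27 to 1.47, adjusted p = 0.0946), 0.67 for H2-Eb1 (0.09 to 1.24, adjusted p = 0.184) and 0.94 for Cd74 (0.32 to 1.55, adjusted p = 0.0781). The call of Ciita was lost with pseudocounts under 1 or on the recovered reads (adjusted p up to 0.148), and also without NC replicate 1 (adjusted p = 0.0682) or without SZ-A replicate 6 (adjusted p = 0.0523). For Cd86 the change was 0.11 with all mice and -0.12 without NC replicate 6, and for H2-DMb2 -0.61 and 0.20, so their sign hung on that library and neither was called.

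By their median, macrophage genes had larger changes than the class II genes in both comparisons, a difference that was not tested. The macrophage list of 16 genes had 16 higher in HFD than in NC, beside 21.0% of all genes. Without NC replicate 6 it had 15, beside 22.6% of all genes. The median log2 change was 3.39, or 3.01 without NC replicate 6. In SZ-A mice 14 of the 16 fell, with a median of -1.39, beside 13.3% of all genes called lower. Adgre1, which encodes F4/80, ranged from 0.615 to 10.6 FPKM in NC mice, from 139.9 to 258 FPKM under HFD and from 34.2 to 122 FPKM under SZ-A. Adgre1 rose by 5.16 (adjusted p = 4.87e-07) and fell by 1.86 (adjusted p = 0.000379). Cd68, a lysosomal glycoprotein of macrophages, rose by 5.05 (adjusted p = 2e-08) and fell by 1.64 (adjusted p = 0.00288). Mrc1, a mannose receptor, and Fcgr1, an Fc receptor, fell by 1.54 (adjusted p = 0.000304) and 1.56 (adjusted p = 0.000369) in SZ-A mice. Mertk, a receptor for dying cells, and Aif1 had smaller changes, 0.67 and 1.18 in HFD against NC and -0.40 and -0.62 in SZ-A against HFD. The 11 genes of lipid-associated macrophages were all higher in HFD than in NC (median 5.61), beside 21.0% of all genes. Under SZ-A 10 of them fell (median -1.59), beside 13.3% of all genes. Among them Itgax, the integrin CD11c, fell by 1.79, Lipa, a lysosomal lipase, by 1.58, and Spp1, osteopontin, by 2.30.

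Per unit of Adgre1, the RNA of H2-Ab1 and Cd74 was lowest in HFD mice by the median. The ratio of H2-Ab1 to Adgre1 had a median of 18.1 in NC (12.3 to 32.8), 1.74 in HFD (0.940 to 2.64) and 4.06 in SZ-A mice (2.81 to 5.99). The 3 groups did not overlap in this ratio, but Adgre1 alone already separated them. Its level was 0.615 to 10.6 FPKM in NC, 34.2 to 122 FPKM in SZ-A and 139.9 to 258 FPKM in HFD mice. A gene that moves less than Adgre1 can give the same order, and the share of all genes that do so was not counted. Cd74 to Adgre1 gave 48.6 in NC (30.7 to 90.6), 6.02 in HFD (3.01 to 8.91) and 9.44 in SZ-A mice (8.46 to 17.2). Cd80 to Adgre1 had a median of 0.0750 in NC (0.0197 to 0.271), 0.0150 in HFD (0.0107 to 0.0241) and 0.0241 in SZ-A mice (0.0160 to 0.0269), and these ranges overlapped, with NC replicate 5 as the lowest of the NC mice. Ciita to Adgre1 had medians of 0.107, 0.0229 and 0.0307 in NC, HFD and SZ-A mice. Cd86 to Adgre1 ran from 0.285 to 0.614 in NC mice, from 0.00718 to 0.0185 under HFD and from 0.0133 to 0.0676 under SZ-A. These ratios describe the tissue and not any cell type.

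**Figure D4:**
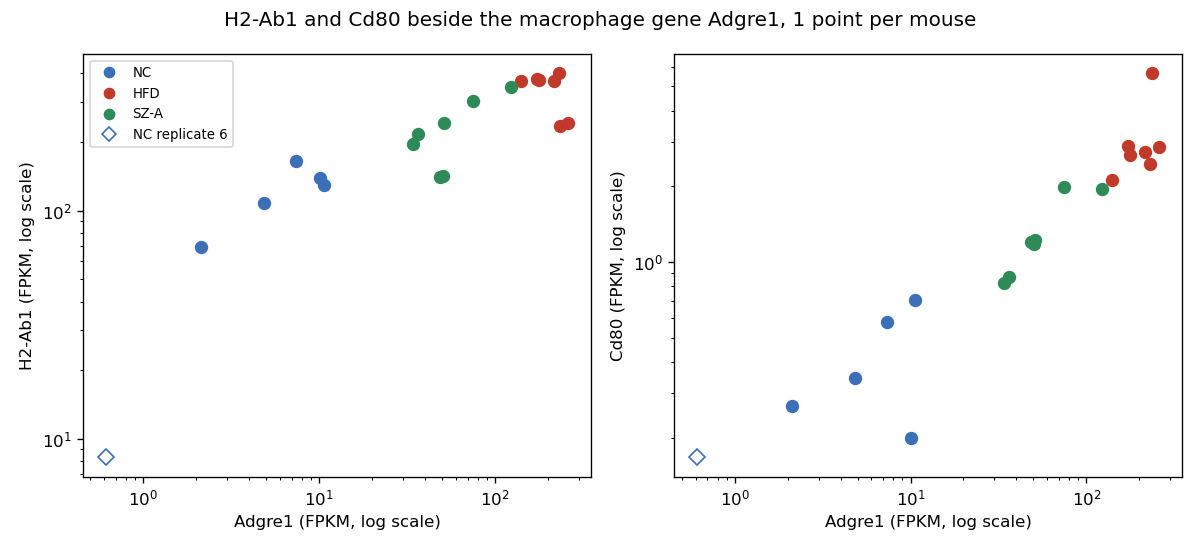
FPKM of H2-Ab1 (left) and Cd80 (right), vertical, against FPKM of Adgre1, horizontal, all on log axes, 1 point per mouse. Adgre1 runs from 0.615 to 258 FPKM over the mice, while H2-Ab1 runs from 69.7 to 401 FPKM outside NC replicate 6, the open diamond.

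To set all genes on the same footing, the mean log2 level of the 16 macrophage genes was subtracted in each mouse. In this scale nearly every gene moved: 98.2% of all genes were lower in HFD than in NC, with a median of -3.32. Of the members, 8 were called lower, with a median of -1.51. This median lay between that of all genes and the mean of the macrophage list, which is 0 by construction. Single macrophage genes spread widely around that mean, with changes before subtraction from 0.67 for Mertk to 5.16 for Adgre1. Once NC replicate 6 was left out, 9 members were called, beside 98.3% of all genes. H2-DMb1 was then the member closest to the mean of the macrophage genes, at -0.49 (95% interval -1.04 to 0.06, adjusted p = 0.0804). This order holds for log2(FPKM + 1), which understates changes of genes as low as Ciita and Cd80. Cd86 was at -2.72 and H2-DMb2 at -3.16, both near the median of all genes. In SZ-A against HFD, 7 members were called higher relative to macrophage genes, beside 94.5% of all genes, and their median was 0.68 against 1.35. In SZ-A against NC, 5 members were called lower, beside 95.3% of all genes, with medians of -0.90 and -1.96. This count was 8 without NC replicate 6, again beside 95.3% of all genes. The count in SZ-A against HFD rested on single mice, with 4 members without HFD replicate 5 and 10 without SZ-A replicate 5.

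The rest of the class II pathway was taken from a list of 23 genes, of which 21 were tested. In HFD mice 12 were higher and 2 lower than in NC, the same counts as without NC replicate 6. With all mice, 21.0% of all genes were called higher. From HFD to SZ-A mice 9 fell, beside 13.3% of all genes called lower, and none rose. The medians were 0.95 (0.80 without NC replicate 6) and -0.57. The 9 were Marchf1, Sppl2a, Nfya and, named after their values were seen, Ctss, Ctsl, Ctsb, Lgmn, Ifi30 and Cd83. Marchf1, a ubiquitin ligase that takes class II and CD86 off the cell surface, rose by 1.96 in HFD (adjusted p = 2.26e-05) and fell by 1.02 in SZ-A mice (adjusted p = 0.000806). Sppl2a, the protease that clears the membrane stub of the invariant chain, rose by 0.95 (adjusted p = 0.00414) and fell by 0.57 (adjusted p = 0.00554). Ctss, cathepsin S, which trims the invariant chain, was at 7.98 to 68.0 FPKM in NC, 700.7 to 1868 FPKM in HFD and 235 to 859 FPKM in SZ-A mice.

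The factors that sit on the X and Y boxes did not move as a group. Of the RFX subunits that bind the X box, Rfx5 had a change of -0.07 in HFD (adjusted p = 0.678) and -0.08 in SZ-A mice (adjusted p = 0.647), and Rfxap of -0.15 (adjusted p = 0.395) and 0.34 (adjusted p = 0.166). Rfxank fell by 0.35 in HFD mice (adjusted p = 0.0233) and was not called in SZ-A mice. Of the NF-Y subunits that bind the Y box, Nfya rose by 1.29 in HFD (adjusted p = 2.43e-05) and fell by 0.72 in SZ-A mice (adjusted p = 0.00576). Nfyb went the other way in HFD mice, where it fell by 0.93 (adjusted p = 3.65e-05), and had a change of 0.31 in SZ-A mice (adjusted p = 0.0786). H2-Oa and H2-Ob, the chains of the H2-DM inhibitor, were under 1 FPKM by their group medians and were called in neither comparison.

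Interferon gamma is the classical inducer of Ciita, but Ifng itself was not analysed here. Of the genes of its axis, Ifngr2 rose by 1.18 in HFD mice (adjusted p = 0.0215) and Jak1 by 0.69 (adjusted p = 0.000855). From HFD to SZ-A mice 3 of the 12 tested genes fell, beside 13.3% of all genes called lower. The receptor chain Ifngr2 fell by 0.58 (adjusted p = 0.00988), the kinase Jak1 by 0.54 (adjusted p = 0.0277) and the chemokine Cxcl10 by 0.37 (adjusted p = 0.0378). Cxcl9 and Jak2 were, without NC replicate 6, called lower in HFD than in NC. The axis had a median of 0.34 in HFD and -0.16 in SZ-A mice.

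The list of costimulators and their receptors, without the members, had 9 tested genes of 16. In HFD mice 5 rose and none fell, with or without NC replicate 6, namely Cd274, Cd276, Cd28, Havcr2 and Vsir. With all mice, 21.0% of all genes were called higher. In SZ-A mice 3 of the 9 fell, beside 13.3% of all genes called lower. Cd276 (B7-H3) fell by 1.45 (adjusted p = 0.000739), Cd28, the receptor of CD80 and CD86, by 0.47 (adjusted p = 0.000722) and Havcr2 (TIM-3) by 1.38 (adjusted p = 0.00608). Cd28 was low, at 0.558 to 0.986 FPKM in HFD and 0.188 to 0.325 FPKM in SZ-A mice, where a pseudocount of 1 understates changes. Lag3, an inhibitory receptor that binds class II, rose by 0.63 (adjusted p = 0.0195).

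Other cells that carry class II were looked for by their markers. Of 12 tested genes of conventional dendritic cells, 4 were higher and 2 lower in HFD than in NC, and the median was 0.00. These counts were 5 and 4 without NC replicate 6. With all mice, the 4 higher genes were Irf8 (2.28), Clec10a (2.20), Batf3 (1.19) and Flt3 (0.33), beside 21.0% of all genes called higher. The 2 lower genes were Irf4 (-2.30) and Cd24a (-3.48). In SZ-A mice 2 of the 12 fell, beside 13.3% of all genes called lower. Irf8, a factor shared with macrophages, fell by 0.92 (adjusted p = 0.0128) and Flt3, a growth factor receptor, by 0.22 (adjusted p = 0.0427). Itgae rose by 0.46 (adjusted p = 0.00586) and Cd24a by 1.71 (adjusted p = 0.0388). Flt3 was low, at 0.314 to 0.665 FPKM in HFD and 0.124 to 0.350 FPKM in SZ-A mice. Cd24a is also an epithelial gene. Zbtb46 and Clec9a, also on the list, were called in no comparison. The summed level of the list was 104 to 182 FPKM in NC, 100.7 to 138 FPKM in HFD and 82.9 to 184 FPKM in SZ-A mice.

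Of the 12 genes of the B cell list, 5 were tested, and the other 7 had no value. Cd79a, part of the B cell receptor, had a log2 change of 0.47 in HFD (adjusted p = 0.381) and -0.13 in SZ-A mice (adjusted p = 0.836). Cd22 rose in HFD mice by 1.90 (adjusted p = 4.26e-07) and fell in SZ-A mice by 1.03 (adjusted p = 0.00361), and Ighm, the mu heavy chain, fell in SZ-A mice by 1.40 (adjusted p = 0.0228). Ighm was also called higher in HFD mice without NC replicate 6 (1.37, adjusted p = 0.0325). The summed level of the 5 genes was 1.502 to 291 FPKM in NC, 162 to 647 FPKM in HFD and 52.3 to 210 FPKM in SZ-A mice. With the mean B cell level of each mouse as a covariate, H2-DMa, H2-DMb1, Ciita and Cd80 kept their call in HFD against NC, 4 of the 10 members beside 16.9% of all genes called higher, and the chains and Cd74 lost it. In SZ-A against HFD 8 members were called with that covariate, the former 7 and H2-Ab1, beside 10.6% of all genes called lower. On the log2(FPKM + 1) scale, the mean B cell level was 2.48 to 3.88 in HFD mice and 0.311 in NC replicate 6. It was 1.70 to 2.79 in the other NC mice. The covariate thus differed with diet, and the fit cannot fully separate it from diet. The part of B cells in the class II values was not tested further.

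Of 11 T cell genes, 2 were higher in HFD than in NC, Cd2 and Thy1, a share near the 21.0% of all genes. From HFD to SZ-A, 2 of the 11 fell, Cd8a by 0.53 (adjusted p = 0.0332) and Thy1 by 0.84 (adjusted p = 0.0422), beside 13.3% of all genes called lower. Of 8 adipocyte genes, 1 was called higher in HFD than in NC, Lep. Without NC replicate 6, 5 were called lower, and none was called in SZ-A against HFD. Of 5 epithelial genes all were lower in HFD than in NC, with or without NC replicate 6, with summed levels of 47.6 to 1287 FPKM in NC, 6.02 to 16.1 FPKM in HFD and 6.53 to 346 FPKM in SZ-A mice, and Adgrg2 and Spint2 rose from HFD to SZ-A mice. The part of these cells in the class II results was not tested.

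Within groups, the genes closest to the mean log2 level of H2-Aa, H2-Ab1, H2-Eb1 and Cd74 over the 20 mice, by Pearson correlation after group means were removed, were Ahnak (0.958), Angptl4 (0.955), Dpt (0.952), Acp5 (0.949) and Gng11 (0.948), of 12440 genes. NC replicate 6 is 1 of the 20 mice, and depth differed between mice. Over the 19 mice without it, the closest were Cbfa2t3 (0.851), Lrrc32 (0.842), Ankrd27 (0.816), Ifi203-ps (0.808) and Hmcn2 (0.802), and none of the first 5 was among them. For Cd86 the closest over 20 mice were Dusp22 (0.920), Vcam1 (0.919), Rnase4 (0.910), Plscr4 (0.909) and Qk (0.907). Over 19 mice they were Sept7 (0.836), Vcam1 (0.828), Zfp422 (0.822), Plxdc2 (0.816) and Dusp22 (0.813), so Vcam1 and Dusp22 were on both lists.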

How the data were processed

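RNA of eWAT was sequenced by the authors from 20 mice as poly(A) libraries with paired-end reads. The authors aligned reads to GRCm38 with HISAT2, counted them with featureCounts 1.5.0-p3 per the submitters' processing notes, and deposited FPKM, which scale fragments by the length of the gene and the size of the library. The table held 14776 genes, and all were above 0 in all mice. The annotation release and the gene filter are not given in the sources used here. The labels give 6 NC mice, and the paper 7.

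Multiplied by exon length in GENCODE M21, 95.9% to 96.3% of values under 1000 reads per mouse were whole within 0.01 reads, with implied library sizes of 13938406 to 19591889. Counting error is small for the class II chains and larger for Ciita, Cd80 and Cd86.

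Comparisons used limma 3.58.1 (R 4.3.3) on log2(FPKM + 1), a variance trend and Benjamini-Hochberg adjustment over genes whose mean reached 0.1 FPKM, 2 groups per fit. DESeq2, which the authors used on counts, was not used. The threshold was an adjusted p under 0.05, alone or with a log2 fold change above 1.5, as in the paper's methods, or with a limit of 1.5 on the fold itself, which the paper's text also uses. A relative fit first subtracted each mouse's mean log2 level of 16 macrophage genes. No p was taken over the members alone. The members and lists were chosen with earlier results of these data known.

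Named were each member, up to 3 genes per list and direction with the lowest adjusted p in SZ-A against HFD, fixed reference genes, genes behind counts of 5 or fewer, and the 5 genes most like the class II chains and Cd86. Macrophage, dendritic, B, T, adipocyte and epithelial lists were written by hand, and Cd4 is in 2 lists. Promoters are from RefSeq. Python 3.11.15, pandas 2.3.3, NumPy 2.4.6 and matplotlib 3.10.9 were used. Alternatives were other pseudocounts, filters, scalings, weights, voom on recovered reads, a B cell covariate, a replicate block, all 3 groups in 1 fit and leaving out each mouse. Some genes that the naming rule covers are not reported here.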

Additional observations from a re-analysis of the deposited data

Results flagged for a closer look

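In 9 of 33 sets of values, a set being 1 gene or list in 1 group, the highest or lowest mouse stood far from the others by Dixon's criterion, which chance gives in about 1 of 20 sets. NC replicate 6 accounts for 6 of them. It was lowest of the NC mice for H2-Aa at 4.83 FPKM, for H2-Ab1 at 8.30 FPKM, for H2-Eb1 at 13.5 FPKM and for Cd74 at 18.8 FPKM, and highest for H2-DMa at 26.6 FPKM and for H2-DMb2 at 78.8 FPKM. The classical chains and the H2-DM genes thus moved apart in that library, with a ratio of H2-DMa to H2-Ab1 of 3.20, against 0.0701 to 0.126 in the other NC mice. Among HFD mice, replicate 5 was lowest for H2-DMa at 25.5 FPKM, replicate 6 was highest for H2-DMb2 at 3.80 FPKM, and replicate 1 was highest for Cd80 at 5.64 FPKM.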

How the results depend on the processing

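Of 739 values of single members under alternatives, 685 kept their direction and side of the threshold, 30 lost their call, 16 gained one and 8 changed sign. With the B cell covariate, HFD against NC gave 4 members at an adjusted p under 0.05 and 2 past the threshold, and the cause was not tested. Leaving out 1 mouse gave 3 to 7 members past the threshold there, with 3 without NC replicate 6. In SZ-A against HFD, all 3 groups in 1 fit gave 3 members in place of 7, and the paper's other limit, 1.5 on the fold change itself, gave 7 in place of 0. In SZ-A against NC, array weights gave 7 members and the replicate block 1, in place of 3, and leaving out 1 mouse 2 to 4. Past the threshold, pseudocounts of 0.1 and 0.01 and voom gave 2 and a fold change above 1.5 gave 3, in place of 1. Relative to macrophage genes, leaving out 1 mouse gave 4 to 10 members in SZ-A against HFD, with 4 without HFD replicate 5, and 5 to 8 in SZ-A against NC, where a pseudocount of 0.1 gave 3 and Adgre1 alone as reference 10. The sign changes were H2-DMb2 at 0.19 and Cd86 at -0.10 in HFD against NC with the B cell covariate, and in SZ-A against NC H2-DMb2 at 0.032 with array weights, 0.0035 with the B cell covariate and 0.20 without NC replicate 6, and Cd86 at -0.11 with the B cell covariate, -0.12 without NC replicate 6 and -0.13 without NC replicate 6 and SZ-A replicate 2, an alternative chosen after seeing the data. Leaving out 1 mouse gave -0.89 to 0.20 for H2-DMb2 and -0.12 to 0.22 for Cd86 there. The replicate numbers did not pair the mice, as same-numbered mice correlated above 0.1 in 2 of 6, 3 of 7 and 2 of 6 pairs of the 3 comparisons. The values of Ciita, Cd80 and Cd86 in NC mice rest on few reads, which limits their precision.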
